A study of Mus musculus with 2 samples.

Results

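Immediate early genes are switched on within minutes of a stimulus from transcription factors already present in the cell, without the need for new protein. The 10 genes described here are Fos, Fosb, Fosl2, Junb, Jund, Egr1, Ier2, Nr4a1, Dusp1 and Zfp36, chosen by symbol from the 31053 genes in the count matrices, and each symbol matched 1 gene in both libraries. They were measured in dorsal root ganglion (DRG) cells of 2-week-old SWISS mice, untreated and uninjured, that had been dissociated with collagenase and dispase and kept on laminin for 3 days. All cells shared this treatment, and the comparisons are between the cell types of the culture: dividing glia, neurons, fibroblasts and macrophages, each set against resting glia. The cells were released with trypsin and loaded as libraries A and B on a single 10x chip. Nothing in the sources used here says that the libraries came from separate mice or cultures. The p-values therefore measure how differences between classes vary between these libraries, a spread that may be technical.

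Fos, Fosb and Fosl2 encode the Fos-type subunits and Junb and Jund the Jun-type subunits of AP-1, a factor that binds DNA as a dimer. Egr1 is a zinc finger transcription factor, Nr4a1 an orphan nuclear receptor and Ier2 a small nuclear protein of the same early response. Dusp1 is a phosphatase that switches MAP kinases off, and Zfp36 (tristetraprolin) binds AU-rich messages and speeds their decay, so these genes belong to the braking side of the response. In peripheral glia, AP-1 genes, Jun above all, are known for their induction after nerve injury. The process of dissociating tissue is also known to induce immediate early genes, and the culture here was detached with an enzyme before capture.

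The genes other than Egr1, which is placed further below, have these bounds in the mouse genome GRCm38 (GENCODE M21): Fos on chr12:85473890-85477273, Fosb on chr7:19302696-19310051, Fosl2 on chr5:32135801-32157842, Junb on chr8:84974484-84978718, Jund on chr8:70698949-70700616, Ier2 on chr8:84661331-84662852, Nr4a1 on chr15:101254269-101274795, Dusp1 on chr17:26505590-26562128 and Zfp36 on chr7:28376784-28380253. Junb, Jund and Ier2 thus share a chromosome, as do Fosb and Zfp36. All 10 genes are protein coding, and none overlaps another gene of the matrices on its own strand. The cAMP response element (CRE) is a known entry point of signals to such genes, and the sequences below are those of the members whose promoter window held its core letters, shown to place them. RefSeq promoter windows (GRCm38.p6) could be used for 8 of the 10 genes, and in the 150 bases before the RefSeq start 5 of the 8 held the short CRE motif TGACG or its reverse complement CGTCA, against 13.3% of all 32851 promoter windows of this length. The full motif TGACGTCA, which contains both short ones, was found in Dusp1 alone, 143 bases before the start, against 1.36% of all windows. Each sequence runs 5' to 3' on the gene's strand and ends at the start or where the first annotated exon begins, with the CRE letters in capitals; the windows are chr12:85473740-85473889 (plus strand), chr7:19310052-19310195 (minus), chr8:84978749-84978898 (minus), chr17:26508520-26508622 (minus) and chr15:101266696-101266845 (plus).

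Fos: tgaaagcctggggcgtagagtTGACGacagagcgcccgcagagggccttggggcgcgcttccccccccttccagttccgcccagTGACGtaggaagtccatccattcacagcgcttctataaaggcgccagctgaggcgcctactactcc
Fosb: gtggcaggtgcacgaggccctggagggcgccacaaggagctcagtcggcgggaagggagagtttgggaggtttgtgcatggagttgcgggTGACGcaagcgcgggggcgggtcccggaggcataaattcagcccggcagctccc
Junb: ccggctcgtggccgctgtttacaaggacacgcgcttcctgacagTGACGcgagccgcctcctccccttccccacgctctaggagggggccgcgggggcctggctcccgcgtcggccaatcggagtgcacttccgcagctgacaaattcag
Dusp1: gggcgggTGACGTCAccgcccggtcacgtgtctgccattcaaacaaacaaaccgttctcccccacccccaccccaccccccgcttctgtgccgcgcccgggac
Nr4a1: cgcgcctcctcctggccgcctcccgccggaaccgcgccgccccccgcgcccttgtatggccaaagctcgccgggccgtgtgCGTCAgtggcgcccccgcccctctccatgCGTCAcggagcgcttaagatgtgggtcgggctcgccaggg

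The short motif stood 129 and 66 bases before the start in Fos, 60 in Fosb, 106 in Junb, and 69 and 40 in Nr4a1. The RefSeq starts of Dusp1 and Nr4a1 lie inside the gene bounds given above. The windows of Fosl2, Jund and Zfp36 held neither CRE form. That of Jund (chr8:70697589-70697738) lies upstream of the gene bounds and does not adjoin them, and the same holds for that of Junb. For Jund and Junb the bases directly before the GENCODE start were thus not searched. Zfp36 was the member whose window held a CArG box, the kind of site that serum response factor binds, read here as CC, then 6 bases that are A or T, then GG. Its site CCATAAAAGG lay 58 bases before the start, and 0.916% of all windows held such a box. An annotated exon reached into this window, and the site lay in that exon or between it and the RefSeq start. The CRE and CArG sites are matches of letters and were not set against binding data. Bases further upstream were not searched, nor were Egr1 and Ier2. A gene without a match here may thus hold such a site elsewhere.

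Of 10948 barcodes, 10730 cells had at least 200 genes and at most 10% mitochondrial UMIs (unique molecular identifiers, each standing for 1 captured transcript), 5066 in library A and 5664 in library B, with medians of 5270 and 4826 UMIs. The libraries shared 8 barcodes, 7 of them among the cells kept. The cells were clustered without the 10 genes and 88 related ones, so that the classes did not depend on them, and were named from marker lists. Dividing glia numbered 3883 cells (1854 in A and 2029 in B), neurons 811 (436 and 375), fibroblasts 396 (175 and 221), macrophages 82 (37 and 45) and resting glia 5558 (2564 and 2994). Glia were named from a marker list that includes Sox10, and take in both satellite glia and Schwann cells, and glial clusters with at least 5 of 101 cell division genes among their 50 leading genes were called dividing. With each cell thinned to 2000 UMIs, Tubb3 was detected in 90.1% of neurons, Dcn in 92.1% of fibroblasts, Lyz2 in 100% of macrophages, and Sox10 in 33.4% of dividing and 39.1% of resting glia (means of the 2 libraries). Median UMIs were 6889 and 6359 per cell in dividing glia, 29527 and 27442 in neurons, 12173 and 11160 in fibroblasts, 8667 and 9203 in macrophages, and 4195 and 3879 in resting glia. Levels are therefore given as CPM, the UMIs of a gene per 1000000 UMIs summed over the cells of a class in a library, as mean ± SD over the 2 libraries, and differences as log2 fold changes with their standard error (SE) from edgeR.

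Resting glia had the highest level of 7 of the 10 genes, neurons that of Jund and Dusp1, and fibroblasts that of Fosl2. The summed level of the 10 genes was 1881 and 1822 CPM in dividing glia, 959.6 and 989.7 CPM in neurons, 877.9 and 1034 CPM in fibroblasts, 936.5 and 669.9 CPM in macrophages, and 2510 and 2499 CPM in resting glia (libraries A and B). Fibroblasts overlapped neurons and macrophages in the sum, and both glial classes stood above them in both libraries.

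**Figure D1:**
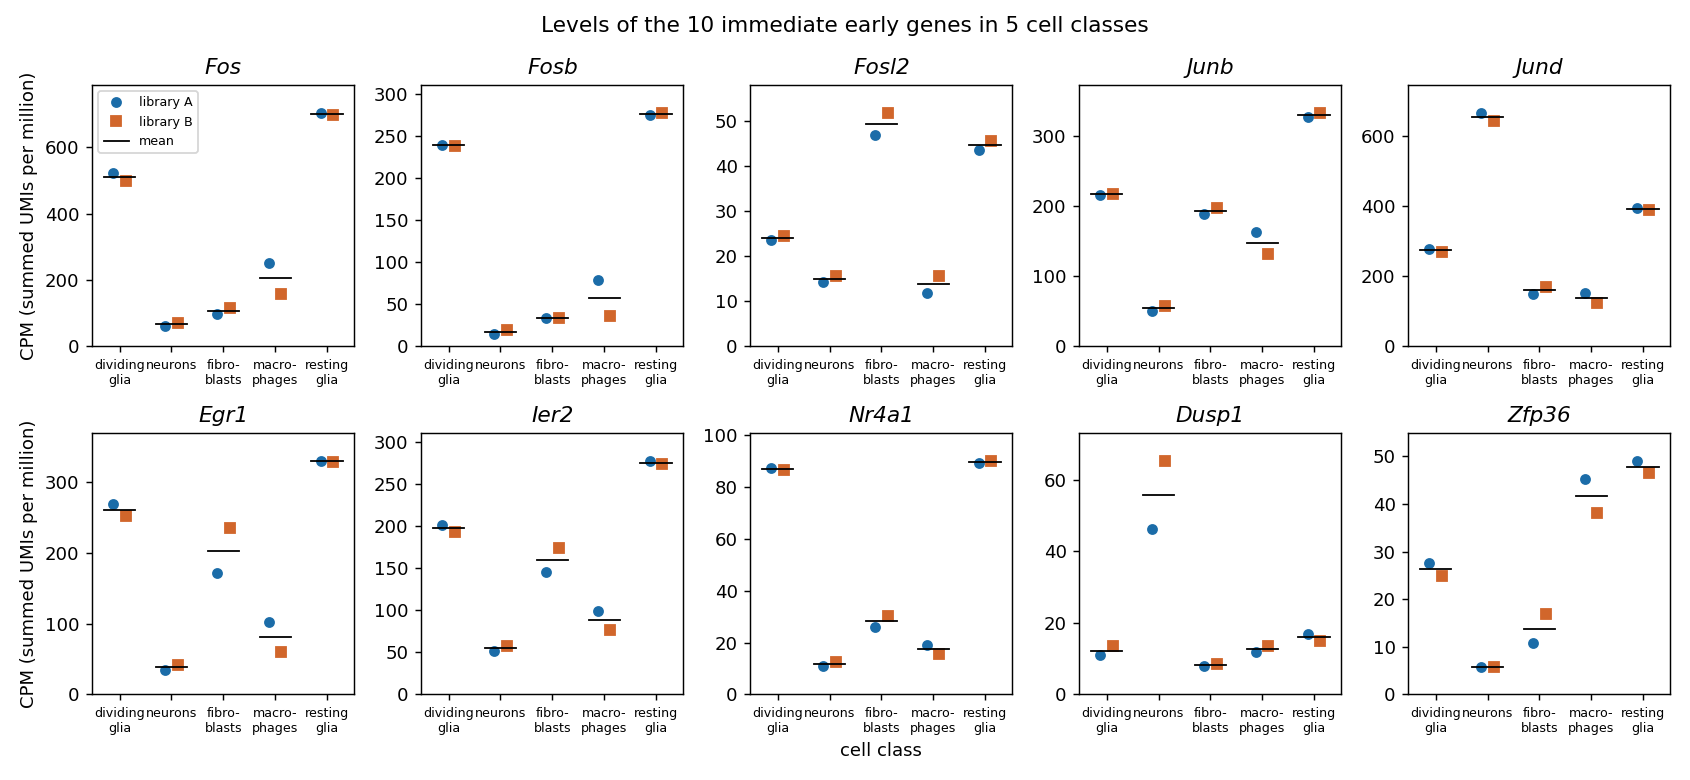
CPM of each of the 10 genes (vertical axes from 0, each gene on its own scale) in dividing glia, neurons, fibroblasts, macrophages and resting glia, with a circle for library A, a square for library B and a line for their mean. The libraries sit close together in both glial classes, Fos is at 524 and 500 CPM in dividing glia and 704 and 698 CPM in resting glia, and Jund and Dusp1 peak in neurons.

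Relative to all their UMIs, dividing glia carried less of most immediate early messages than resting glia. Dividing cells had more UMIs each, so these levels are not amounts per cell. Without thinning, all members but Fosl2 and Zfp36 were detected in a larger share of dividing than of resting glia, in both libraries. Fos was detected in 89.7% of dividing and 87.6% of resting glia, Fosb in 71.2% and 62.8%, and Nr4a1 in 41.69% and 29.75% (means of the libraries). Fosl2 was detected in 14.5% and 16.2%, and Zfp36 in 15.4% and 17.2%. Of the 10 genes 9 fell and none rose at an adjusted p under 0.05, where 44.5% of the 14472 genes tested were called in either direction and 20.5% were lower and 23.9% higher. Among genes that the clustering had not used, 41.6% were called. The median log2 fold change was -0.41 over the members and -0.02 over all genes tested. Fos was at 524 and 500 CPM in dividing glia and at 704 and 698 CPM in resting glia, a log2 fold change of -0.40 (SE 0.05, edgeR adjusted p = 1.21e-14). The libraries of the classes did not overlap for Fos, nor for any of the other 8 genes that fell.

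The deepest falls in dividing glia were in Fosl2 and Zfp36. Fosl2 was at 23.5 and 24.4 CPM in dividing glia and at 43.6 and 45.6 CPM in resting glia (log2 fold change -0.84, SE 0.09, edgeR adjusted p = 8.94e-22). Zfp36 was at 27.7 and 24.9 CPM in dividing glia and at 49.0 and 46.5 CPM in resting glia (-0.81, SE 0.08). Each thus stood near 55% of its resting level, Fosl2 at 53.8 ± 0.4% and Zfp36 at 55.0 ± 2.1% (SD, n = 2).

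Junb, Jund, Ier2 and Egr1 fell by smaller amounts. Junb was at 217 and 218 CPM in dividing glia and at 328 and 334 CPM in resting glia (-0.55, SE 0.06). Jund was at 279.6 and 270.2 CPM in dividing glia and at 395 and 389.8 CPM in resting glia (-0.46, SE 0.05). The log2 fold changes were -0.43 (SE 0.04) for Ier2 and -0.28 (SE 0.05) for Egr1.

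Fosb and Nr4a1 were close in the glial classes. Fosb was at 240.3 and 238.9 CPM in dividing glia and at 276 and 278 CPM in resting glia, a fall of 0.15 on the log2 scale (SE 0.04, edgeR adjusted p = 1.05e-04). With cells above 5% mitochondrial UMIs left out, which kept 250 and 318 resting glia, Fosb was at 0.015 (adjusted p = 0.95), and the calls for Egr1 (-0.26, adjusted p = 0.082) and Dusp1 (-0.49, adjusted p = 0.27) were lost as well. Nr4a1 was at 87.5 and 86.8 CPM in dividing glia and at 89.3 and 90.2 CPM in resting glia (0.01, SE 0.05, adjusted p = 0.86, and -0.041 without TMM scaling). Nr4a1 was the member that did not pass.

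Dusp1, a gene of low level in glia, was at 10.9 and 13.6 CPM in dividing glia and at 16.8 and 15.0 CPM in resting glia, which is 150 and 186 UMIs against 196 and 189. Its fall (-0.32, SE 0.12, edgeR adjusted p = 0.020) came mostly from library A, with log2 ratios of -0.56 in A and -0.09 in B. Without the library as a block its adjusted p was 0.23, so the call for Dusp1 rested on the pairing. DESeq2 called 6 of the 10 genes (28.5% of all genes called), leaving out Nr4a1 and also Fosb, Egr1 and Dusp1.

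**Figure D2:**
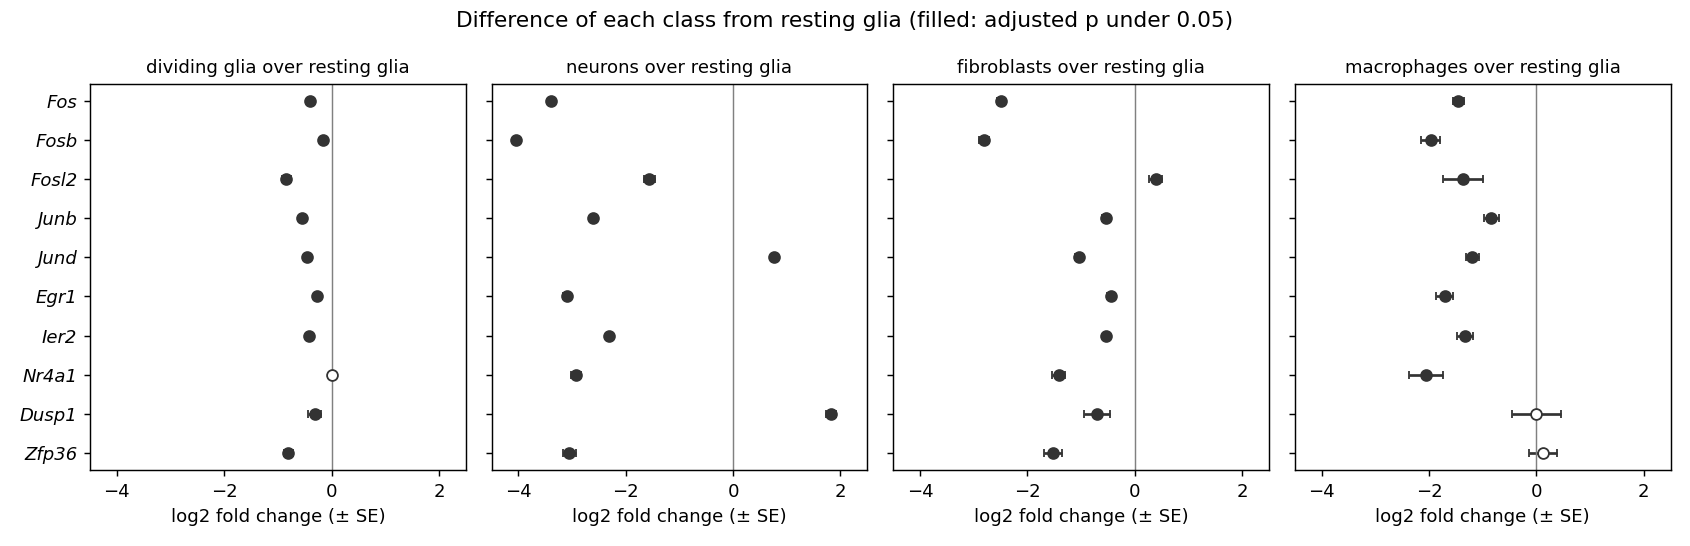
Log2 fold change (horizontal axis, ± SE) of each gene in dividing glia, neurons, fibroblasts and macrophages over resting glia, with filled points for an adjusted p under 0.05. Fosb lies at -4.04 in neurons and -2.81 in fibroblasts but at -0.15 in dividing glia, and Dusp1 lies at 1.81 in neurons.

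Relative to all their UMIs, neurons held little of most of these messages but more Jund and Dusp1 than resting glia. Neurons had the most UMIs per cell, so these levels too are not amounts per cell. All 10 genes passed the test, 2 higher and 8 lower, beside 80.5% of all genes tested (40.5% higher and 40% lower, and 78.4% called among genes not used for clustering). The median log2 fold change was -2.76 over the members and -0.0022 over all genes. Jund was at 667 and 643.5 CPM in neurons and at 395 and 389.8 CPM in resting glia (0.75, SE 0.05, edgeR adjusted p = 2.29e-49). Dusp1 was at 46.3 and 65.3 CPM in neurons and at 16.8 and 15.0 CPM in resting glia (1.81, SE 0.09, edgeR adjusted p = 8.74e-84). For both genes each neuronal library stood above each library of every other class.

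The 8 others fell in neurons. Fosb was at 14.8 and 19.0 CPM in neurons and at 276 and 278 CPM in resting glia (-4.04, SE 0.06). Fos was at 62.1 and 71.3 CPM in neurons and at 704 and 698 CPM in resting glia (-3.39, SE 0.06). Egr1 (-3.09, SE 0.07), Zfp36 (-3.05, SE 0.12) and Nr4a1 (-2.92, SE 0.09) followed, then Junb (-2.60, SE 0.07) and Ier2 (-2.32, SE 0.05). Fosl2 fell least, by 1.56 on the log2 scale (SE 0.10), to 14.3 and 15.6 CPM in neurons against 43.6 and 45.6 CPM in resting glia.

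Glial messages were also present in the neuronal cells, at levels near those of the members that fell. The 11 glial markers other than Apoe summed to 10.8 ± 0.4% of their resting-glia level in neurons (SD, n = 2), with S100b, a gene that sensory neurons also express, at 85.8%. Fos stood at 9.53 ± 0.99% of its resting-glia level in neurons, Fosb at 6.09 ± 1.02%, Egr1 at 11.7 ± 1.5% and Nr4a1 at 13.1 ± 1.2%. Junb at 16.3 ± 1.1%, Ier2 at 19.9 ± 1.6% and Fosl2 at 33.5 ± 1.0% stood above Fos in both libraries.

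The neurons were therefore divided at the median share of UMIs from the 11 glial markers in each library, a division chosen after seeing the data. These markers summed to 169 and 157 CPM in the 406 neurons up to the median and to 1403 and 1475 CPM in the 405 above it. Fos was at 19.6 and 24.6 CPM in neurons up to the median and at 128 and 145 CPM in those above it. Fosb was at 2.83 and 5.02 CPM up to the median and at 33.3 and 40.8 CPM above it, and Nr4a1 at 2.98 and 2.69 CPM up to the median and at 23.2 and 28.2 CPM above it.

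Jund behaved otherwise, with 684 and 659 CPM up to the median and 640.6 and 619 CPM above it. Dusp1 was at 41.0 and 56.3 CPM up to the median and at 54.6 and 79.4 CPM above it, and its libraries overlapped between the divisions. Junb was at 33.3 and 35.0 CPM up to the median against 78.5 and 91.8 CPM above it. Refitted with neurons up to the median alone, all 10 genes passed in the same directions (80.3% of 13929 genes called). Log2 fold changes over resting glia were -4.99 for Fos, -6.16 for Fosb, 0.79 for Jund and 1.62 for Dusp1. These neurons were chosen for few glial UMIs, so a message that follows glial RNA falls further through the choice itself. For the genes that fell the refit is thus no separate test. The markers include S100b, so the division may also have sorted kinds of neuron, which was not tested.

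**Figure D3:**
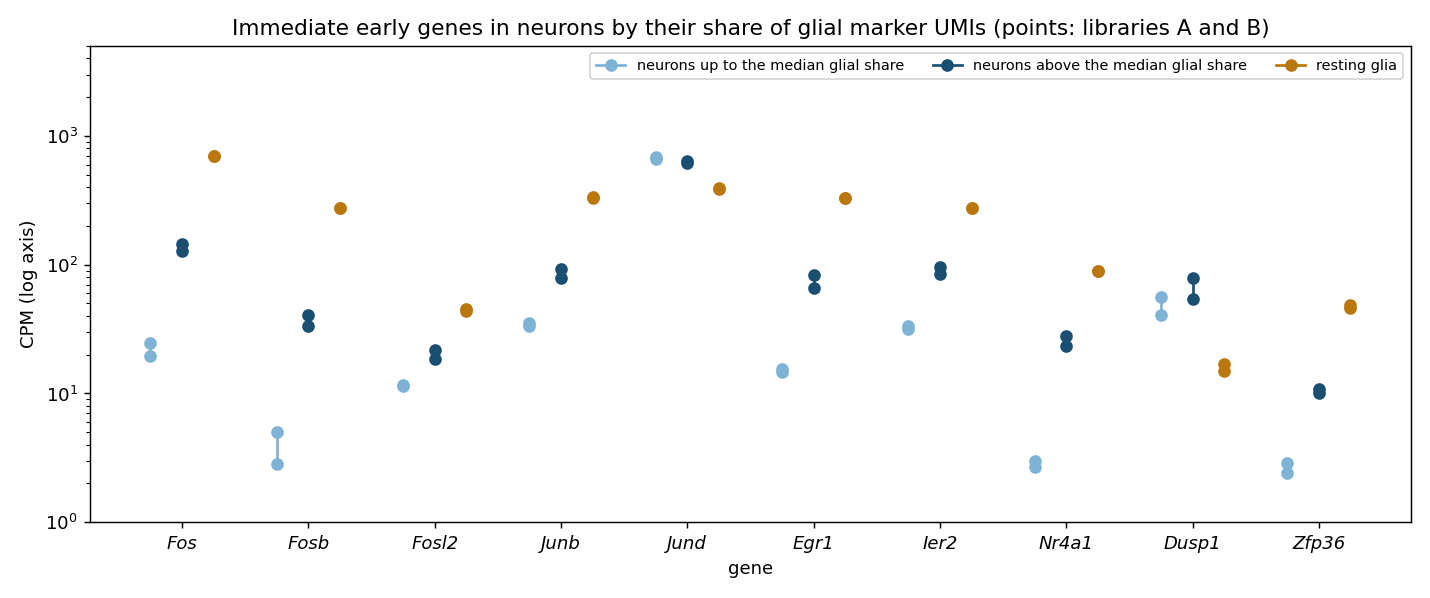
CPM (log axis) of each gene in neurons up to the median share of glial marker UMIs, in neurons above it and in resting glia, with points for libraries A and B joined by a line. Fos is at 19.6 and 24.6 CPM, 128 and 145 CPM, and 704 and 698 CPM in these groups, while Jund stays between 619 and 684 CPM in all neurons.

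Fibroblasts held Junb and Ier2 near the level of dividing glia and had little Fos and Fosb. Of the 10 genes 1 rose and 9 fell relative to resting glia, beside 52.3% of all genes tested (26.1% higher, 26.2% lower, and 49.2% called among genes not used for clustering), with medians of -0.87 over the members and -0.07 over all genes. Fos was at 96.3 and 115 CPM in fibroblasts and at 704 and 698 CPM in resting glia (-2.48, SE 0.07). Fosb was at 33.2 and 33.3 CPM in fibroblasts and at 276 and 278 CPM in resting glia (-2.81, SE 0.10). The glial markers other than Apoe summed to 6.29 ± 0.75% of their resting-glia level in fibroblasts, and Fosb stood at 12.04% and 11.96% of its own in the 2 libraries.

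Egr1 (chr18:34859823-34864984), which growth factors induce in fibroblasts, was at 171 and 235 CPM in fibroblasts and at 330.3 and 329 CPM in resting glia (-0.45, SE 0.07, edgeR adjusted p = 1.96e-09). Junb was at 189 and 198 CPM in fibroblasts and at 328 and 334 CPM in resting glia (-0.53, SE 0.07), and Ier2 fell by a like amount (-0.54, SE 0.06). Jund fell by 1.04 (SE 0.07), Nr4a1 by 1.41 (SE 0.13) and Zfp36 by 1.53 (SE 0.17) on the log2 scale. Dusp1 was at 7.95 and 8.62 CPM in fibroblasts, from 17 and 21 UMIs, and at 16.8 and 15.0 CPM in resting glia (-0.70, SE 0.24, edgeR adjusted p = 0.0096, and 0.18 without the library block).

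Fosl2 was the member higher in fibroblasts, at 46.7 and 51.7 CPM against 43.6 and 45.6 CPM in resting glia (0.39, SE 0.12, edgeR adjusted p = 0.0033). This call was lost without TMM scaling (0.15, adjusted p = 0.27) and with cells thinned to 2000 UMIs (0.46, adjusted p = 0.15), and its direction turned when cells above 5% mitochondrial UMIs were left out (-0.026, adjusted p = 0.93). With DESeq2, 8 of the 10 genes passed (44.9% of all genes called), Dusp1 and Egr1 not. At the 5% mitochondrial limit 6 passed, all lower, and Ier2 (-0.155, adjusted p = 0.23), Egr1 (-0.089, adjusted p = 0.58) and Dusp1 (-0.75, adjusted p = 0.071) did not. The share of all genes called at that limit is not given, and fewer cells were kept. The calls lost among the members therefore cannot be told from a general loss of calls.

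Macrophages were few, and their values carry the widest errors. Of the 10 genes none rose and 8 fell relative to resting glia, beside 29.5% of all genes tested (14.7% higher, 14.8% lower, and 26% called among genes not used for clustering), with medians of -1.34 over the members and -0.24 over all genes. Fos was at 252 and 159 CPM in macrophages, from 106 and 71 UMIs, and at 704 and 698 CPM in resting glia (-1.45, SE 0.11, edgeR adjusted p = 2.64e-40). Egr1 was at 102 and 60.5 CPM in macrophages and at 330.3 and 329 CPM in resting glia (-1.70, SE 0.16). Fosb (-1.97, SE 0.18) and Nr4a1 (-2.05, SE 0.31) fell further, and Jund (-1.19, SE 0.13) and Junb (-0.84, SE 0.13) less.

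Library A macrophages had more Fos, Fosb and Egr1 than those of library B, and also more glial RNA. The glial markers other than Apoe summed to 23.6% of their resting-glia level in macrophages of library A and 13.4% in those of library B. Fos stood at 35.8% and 22.8% of its own level, and Fosb at 28.45% and 12.89%. The part of glial RNA in the macrophage levels was not tested.

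Zfp36 and Dusp1 did not pass in macrophages. Zfp36, which limits the messages of inflammatory cytokines in macrophages, was at 45.2 and 38.1 CPM in macrophages and at 49.0 and 46.5 CPM in resting glia (0.12, SE 0.26, adjusted p = 0.80). The sign of this fitted value is opposite to that of the CPM and turned without TMM scaling (-0.20, adjusted p = 0.59). In CPM Zfp36 stood at 87.0 ± 7.2% of its resting-glia level while Fos stood at 29.3 ± 9.2% (SD, n = 2). Dusp1 was at 11.9 and 13.4 CPM in macrophages, from 5 and 6 UMIs, and a difference from the 16.8 and 15.0 CPM of resting glia was not detectable at this depth (0.0036, SE 0.46, and -0.33 without TMM scaling).

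The order of the 5 classes was compared between neighbours, 4 pairs for each gene, and 28 of the 40 pairs passed. The shares of all genes called in the further pairs this needed were 83.5% in dividing glia over neurons, 57.4% over fibroblasts and 34.3% over macrophages, 68.6% in neurons over fibroblasts and 45.1% over macrophages, and 26.1% in fibroblasts over macrophages. For Fos all 4 passed, in the order neurons, fibroblasts, macrophages, dividing glia and resting glia from low to high. Fosb had the same order with all 4 passed. The part of glial RNA in the place of macrophages in this order was not tested. Egr1 passed all 4 as well, with fibroblasts above macrophages, and Zfp36 all but macrophages against resting glia (adjusted p = 0.80). Junb did not differ beyond error between fibroblasts and dividing glia (adjusted p = 0.83) or between macrophages and fibroblasts (adjusted p = 0.12). Ier2 did not between fibroblasts and dividing glia (adjusted p = 0.14), nor Jund between macrophages and fibroblasts (adjusted p = 0.53), nor Fosl2 between macrophages and neurons (adjusted p = 0.75). For Dusp1 none of the pairs below neurons passed, and for Nr4a1 dividing glia over fibroblasts was the sole pair that did (log2 fold 1.43, edgeR adjusted p = 1.59e-29).

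Glia were then clustered on their own, again without the listed genes. Cluster 0 (3600 cells) and cluster 1 (1958 cells) were the resting glia, the first led by Apoe and Ccnd2 and the second by Tgfbi, Igfbp5 and Atf3. Clusters 2 (1627 cells), 3 (1195) and 4 (1061) made up the dividing glia, with histone genes of S phase leading cluster 2, Fxyd6 and Apod leading cluster 3, which had 12 division genes among its 50 leading genes, and mitosis genes leading cluster 4. The clusters also differed in markers of glial type. Satellite glia markers summed to 11770, 7514 and 7387 CPM in clusters 0, 2 and 4 and to 2489 and 2040 CPM in clusters 1 and 3 (means). Repair Schwann cell markers summed to 75.9, 58.1 and 46.7 CPM in clusters 0, 2 and 4 and to 423.5 and 249.1 CPM in clusters 1 and 3. Atf3, itself an immediate early gene and a marker of injured cells, was among the genes held out, so it described cluster 1 without having formed it.

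Of the 10 genes 1 rose and 8 fell in cluster 1 over cluster 0, beside 38.5% of the 11752 genes tested. Other immediate early genes did not lean to one side, with 12 of 35 higher and 12 lower (median -0.03). Atf3 was at 238 and 232 CPM in cluster 1 and at 39.3 and 37.6 CPM in cluster 0 (2.65, SE 0.06), and Gadd45b, a stress sensor gene, at 87.0 and 61.8 CPM in cluster 1 and at 34.2 and 26.7 CPM in cluster 0 (1.32, SE 0.09). Nr4a1 was at 47.7 and 48.8 CPM in cluster 1 and at 108 and 112 CPM in cluster 0 (-1.15, SE 0.08, edgeR adjusted p = 1.54e-38). Ier2 was at 185 and 183 CPM in cluster 1 and at 320.3 and 321 CPM in cluster 0 (-0.77, SE 0.04). Fos fell by far less, to 617 and 611 CPM in cluster 1 against 743.6 and 742 CPM in cluster 0 (-0.24, SE 0.03).

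Fosl2 went the other way, at 68.6 and 65.8 CPM in cluster 1 and at 32.2 and 35.1 CPM in cluster 0 (1.03, SE 0.09, edgeR adjusted p = 1.67e-24). This was the highest level of Fosl2 in any glial cluster. Dusp1, at 17.3 and 14.2 CPM in cluster 1 and at 16.6 and 15.4 CPM in cluster 0, did not pass (0.00, SE 0.16).

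**Figure D4:**
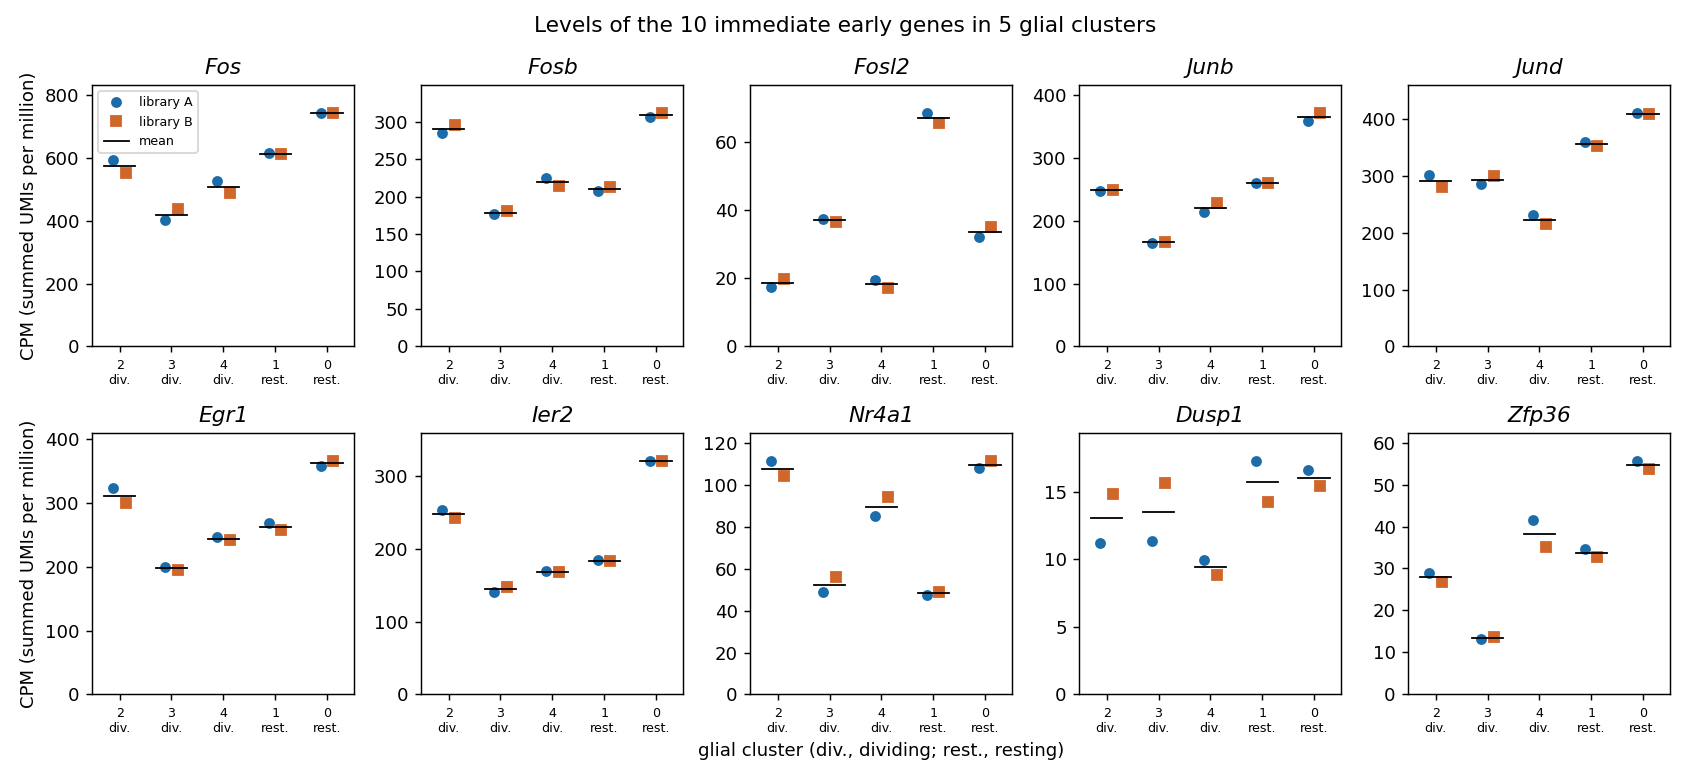
CPM of each gene (vertical axes from 0, each gene on its own scale) in dividing glial clusters 2, 3 and 4 and resting clusters 1 and 0, with a circle for library A, a square for library B and a line for the mean. Nr4a1 lies at 47.7 to 56.2 CPM in clusters 3 and 1 and at 85.1 to 112 CPM in clusters 2, 4 and 0, while Fosl2 is highest in cluster 1.

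Set against the mean of the other glial clusters, cluster 0 had 9 of the 10 genes higher and none lower (54.4% of all genes called, 29.2% higher), Fosl2 being the exception (0.12, SE 0.08). Cluster 3 had 1 higher and 7 lower (44.6% called, 18.9% lower), with Zfp36 lowest of all, at 13.2 and 13.8 CPM (-1.41, SE 0.13). Cluster 4 had 2 higher, Zfp36 (0.39, SE 0.10) and Nr4a1 (0.26, SE 0.07), and 8 lower (41.2% called, 19.7% lower). Cluster 2 had 4 higher and 2 lower (52.7% called), the higher ones Nr4a1, Fosb, Ier2 and Egr1, and cluster 1 had 4 higher and 3 lower (49.7% called). With DESeq2 the calls for Dusp1 in cluster 0 (0.28, adjusted p = 0.34) and in cluster 4 (-0.64, adjusted p = 0.053) were lost, as was that for Jund in cluster 1 over cluster 0 (-0.13, adjusted p = 0.13).

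The difference between dividing and resting glia was also taken between single clusters, pairs chosen after seeing the data. Cluster 2 over cluster 0 gave 8 lower (56.5% of all genes called in either direction). Cluster 4 over cluster 0 gave 10 lower (42.9%), and cluster 3 over cluster 1 gave 8 lower (39.9%). The last pair was chosen for its like level of Nr4a1, itself a member. Its count is therefore a description and no separate test, and its result for Nr4a1 was set by the choice. In cluster 3 over cluster 1, Zfp36 fell by 1.28 (SE 0.16), Fosl2 by 0.82 (SE 0.10) and Fos by 0.51 (SE 0.04), all on the log2 scale. Nr4a1 did not pass in cluster 2 over 0 (-0.02, SE 0.06), and it fell in the mitotic cluster 4 over 0 (-0.28, SE 0.07, edgeR adjusted p = 2.18e-04).

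In single cells the genes were measured after each cell was thinned to 2000 UMIs, which left out 229 shallower cells. Fos was detected in 61.2% and 58.0% of dividing glia, 15.0% and 17.5% of neurons, 14.5% and 24.1% of fibroblasts, 35.1% and 22.2% of macrophages, and 70.3% and 70.2% of resting glia. Without thinning the means were 89.7%, 53.1%, 52.9%, 65.6% and 87.6% in the same order, so that the depth of the cells moved these shares strongly. As a background, the glial gene Sox10 was seen after thinning in 6.52% and 11.3% of neurons and in 39.7% and 38.5% of resting glia, where the source of the glial RNA in neurons was not tested, and the macrophage gene Lyz2 in 0.86% of resting glia.

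Detection of Jund was highest in neurons: it was seen in 41.4% and 40.8% of dividing glia, 70.0% and 63.8% of neurons, 26.1 ± 1.5% of fibroblasts (SD, n = 2), 18.9% and 22.2% of macrophages, and 52.0% and 52.7% of resting glia. Dusp1 was detected in 9.66% and 8.76% of neurons and in 3.46% and 2.56% of resting glia. The neuronal share of Egr1, 6.04% and 10.4%, was below that of Sox10 in both libraries, as were those of Fosb, Fosl2, Nr4a1 and Zfp36. That of Dusp1 was below it in library B alone. Some of these genes were rare in resting glia too, such as Fosl2 at 8.15% and 8.87%. A share below that of Sox10 therefore cannot tell where a message came from, and the source in neurons was not tested.

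Most resting glia carried several of the messages at once. After thinning, none of the 10 genes was detected in 4.86% and 5.13% of dividing glia, 16.2% and 18.1% of neurons and 1.99% and 2.36% of resting glia. A thinned resting glial cell had a median of 5 UMIs of the 10 genes in both libraries, a 95th percentile of 11 and a highest value of 26 in A and 24 in B. Its variance was 1.72 and 1.75 times its mean in resting glia and 1.58 and 1.46 times in dividing glia. Of the 10 genes 6 or more were detected in 3.02% and 2.19% of dividing glia and in 7.04% and 7.41% of resting glia.

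Detection of the other 9 genes was also set against that of Fos in the same cells, as a description with no test. In neurons 8 of the 9 were detected more often in cells with Fos in both libraries, in dividing glia 7 and in resting glia 6. Neurons with Fos numbered 62 in each library, and Fosb was detected in 14.5% and 16.1% of them and in 1.42% and 4.80% of neurons without. The part of glial RNA in this was not tested. In dividing glia Egr1 was detected in 44.2% and 41.5% of cells with Fos and in 33.9% and 37.0% of cells without, and Junb in 35.9% and 37.2% of cells with Fos and in 28.8% and 28.6% of cells without. Fosl2 went the other way, in 3.97% and 4.64% of dividing glia with Fos and in 6.95% and 4.86% of those without. Jund differed little by Fos in dividing glia, at 42.1% and 41.7% of cells with Fos and 40.2% and 39.6% of cells without. In fibroblasts Egr1 was detected in 28.0% and 34.6% of cells with Fos and in 29.7% and 35.4% of cells without. In fibroblasts and in macrophages 2 of the 9 genes were detected more often in cells with Fos in both libraries and 2 less often, from at most 52 cells with Fos in a library.

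Across the 10 sums of a class in a library, the levels of some members ran in parallel. These correlations describe 5 classes measured in 2 libraries each and are given without a test. Pearson's r of log2(CPM + 10) was 0.99 between Fos and Fosb and 0.99 between Egr1 and Ier2, 0.95 between Junb and Ier2 and 0.95 between Fosb and Nr4a1. Jund and Dusp1 stood apart from these and ran with each other (r = 0.83), with r of -0.04 and -0.46 to Fos. Among 9307 genes reaching 20 CPM, those most like Fos were Cdk6 (0.997), Ccnd1, Stard3, Cttnbp2nl and Qk, those most like Jund were Mapk8ip1 (0.998), Tmem14a and Rbms3, and those most like Egr1 were Sparc (0.995), Timm44 and Ier2.

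Other immediate early genes were counted against resting glia in the same way. Of a list of 39, 37 could be tested, and Jun, Fosl1, Atf3 and Maff stand both here and among the AP-1 partners. In dividing glia 2 were higher and 24 lower than in resting glia (median -0.44), in neurons 3 higher and 28 lower (median -1.60), in fibroblasts 11 higher and 17 lower (median -0.34), and in macrophages 5 higher and 14 lower (median -0.61). Over all genes tested the shares called were 44.5% in dividing glia, 80.5% in neurons, 52.3% in fibroblasts and 29.5% in macrophages, and they are the background of the lists that follow too. Several counts are near them, such as 31 of these 37 genes in neurons and 5 of 16 upstream factors in macrophages. In dividing glia Atf3 was at 26.5 and 25.5 CPM against 101 and 104 CPM in resting glia (-1.92, SE 0.07), and Gadd45b fell by 1.69 (SE 0.10). Id1, an inhibitor of differentiation factors, was higher, at 26.9 and 29.9 CPM in dividing glia and 6.34 and 6.60 CPM in resting glia (2.19, SE 0.13).

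In neurons the genes that rose were Gadd45g (4.24, SE 0.09), Atf3 (1.93, SE 0.04) and Csrnp1 (1.22, SE 0.22). Atf3, the classic marker of an injured sensory neuron, was at 373 and 404 CPM in neurons and at 101 and 104 CPM in resting glia. Egr3, a relative of Egr1, was at 10.9 and 11.8 CPM in neurons and at 109 and 107 CPM in resting glia (-3.24, SE 0.09). In fibroblasts the connective tissue growth factor gene Ctgf rose most (6.36, SE 0.32), at 46.3 and 25.9 CPM against 0.09 and 0.87 CPM in resting glia. In macrophages Sgk1, a kinase induced by serum and glucocorticoid, was at 128 and 130 CPM against 14.0 and 15.6 CPM in resting glia (3.45, SE 0.21).

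Among 13 possible partners in AP-1 and related leucine zipper genes, 1 was higher and 6 lower in dividing glia, 5 higher and 5 lower in neurons, 5 higher and 4 lower in fibroblasts, and 6 higher and 1 lower in macrophages. Jun, the main Jun-type subunit, was at 735 and 716 CPM in dividing glia and at 1125 and 1117 CPM in resting glia (-0.57, SE 0.05). Jun was at 306 and 323 CPM in neurons (-1.82, SE 0.05), at 175 and 207 CPM in fibroblasts (-2.30, SE 0.06) and at 359 and 222 CPM in macrophages (-1.63, SE 0.09). The sole Jun-family member higher in neurons than in resting glia was thus Jund.

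Among 13 feedback inhibitors of the MAP kinase pathway, 8 were lower and none higher in dividing glia, while 6 were higher and 6 lower in neurons, 6 higher and 5 lower in fibroblasts, and 1 higher and 3 lower in macrophages. Dusp6, the phosphatase of ERK in the cytoplasm, was at 12.2 and 15.6 CPM in neurons and at 98.4 and 103 CPM in resting glia (-2.86, SE 0.08), the opposite direction to Dusp1. Errfi1, an inhibitor of the EGF receptor, was at 160 and 156 CPM in fibroblasts and at 6.43 and 5.64 CPM in resting glia (4.95, SE 0.12).

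Of 16 upstream factors (serum response factor and its partners, CREB-type factors and kinases), 3 were higher and 3 lower in dividing glia, 8 higher and 7 lower in neurons, 5 higher and 4 lower in fibroblasts, and 3 higher and 2 lower in macrophages. In neurons the kinase genes Map2k1 (1.55, SE 0.06) and Mapk3 (1.14, SE 0.05) rose and Creb1 fell (-0.67, SE 0.08), relative to resting glia. Of 11 heat shock genes, which respond to other stresses, 4 were higher and 4 lower in dividing glia, 8 higher and 3 lower in neurons, 7 higher and 2 lower in fibroblasts, and 1 higher and 5 lower in macrophages. Hspa1a was at 4.66 and 4.52 CPM in dividing glia and at 14.3 and 26.9 CPM in resting glia (-2.10, SE 0.15), where the libraries differed. Hspb1 was at 926 and 933 CPM in neurons and at 28.3 and 45.9 CPM in resting glia (4.65, SE 0.22).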

How the data were processed

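Single cells of DRG cultures were captured as 2 libraries, A and B, with the 10x 3' v3 kit. The deposited values are whole-number UMI counts per gene and cell that the authors made with Cell Ranger against mm10 (version 3.0.2 in the submitters' processing notes, 3.1.0 in the matrix header). UMIs are counted once per molecule, and only the 3' end is read.

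Cells with at least 200 genes and at most 10% mitochondrial UMIs were clustered with Seurat 5.3.0 (2000 variable genes, 20 dimensions, resolution 0.18), with 98 genes of the lists held out of the variable genes. A cluster took the name of the marker list (glia, neurons, fibroblasts or macrophages) with the highest mean log2 CPM. Glial clusters with at least 5 of 101 cell division genes among their 50 leading genes were called dividing. Scrublet (scanpy 1.11.5) called 2 and 3 doublets, so the caller did not work here and its scores only ranked cells for an alternative.

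Counts were summed per library and class (2 sums a class) and tested with edgeR 4.0.16 (quasi-likelihood, TMM, library as block, 4 residual degrees of freedom) over 14472 genes, or 11752 for glial clusters, with Benjamini-Hochberg adjustment. The same letter marks the same library in every class, so the block pairs sums of the same library. Within a class the libraries differed by more than sampling noise (chi-square per degree of freedom 1.30 to 2.41). The fit was tested on simulated data. Alternatives were DESeq2 1.42.0, other scalings, no filter, no block, stricter cell filters, thinning and leaving out a library. The 10 genes and the lists were chosen with earlier results of these data known. All 10 genes were reported, and for the other lists up to 6 genes per list that passed, reached 20 CPM in a class and had the largest change could be named. Csrnp1 and Creb1, outside that limit, were chosen after their values were seen. Very small p-values rest on 2 libraries and on a spread that the fit pools over genes, and are given as the software reports them.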

Additional observations from a re-analysis of the deposited data

How the results depend on the processing

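The counts of members called in each comparison stayed within 1.5 times the values given, in all alternatives run, except in fibroblasts at a mitochondrial limit of 5%, where 6 were called. That limit left 250 and 318 resting glia, and the share of all genes called with it is not given. It also turned Fosb in dividing glia (0.015) and Fosl2 in fibroblasts (-0.026), and neither passed. Nr4a1 in dividing glia, which did not pass, was -0.0736 with DESeq2, -0.041 without TMM, -0.0738 with DESeq2 size factors in edgeR, -0.049 without the filter on low counts, -0.0385 without the 5% of cells with the highest doublet score, -0.045 with cells thinned to 2000 UMIs, -0.02 as cluster 2 over cluster 0 and -0.28 as cluster 4 over cluster 0. In macrophages Zfp36 was -0.20 without TMM, -0.11 without the filter and -0.55 after thinning, and Dusp1 was -0.33 without TMM and -0.23 without the filter. Dusp1 in fibroblasts was 0.56 after thinning. With either library left out, some values near 0 changed sign, and with 1 library they have no test. Their ranges were -0.22 to 0.21 for Dusp1 in macrophages, -0.043 to 0.067 for Fos, -0.0115 to 0.0245 for Junb and -0.28 to 0.14 for Dusp1 in cluster 2, -0.0975 to 0.033 for Jund and -0.18 to 0.31 for Dusp1 in cluster 3, and -0.077 to 0.090 for Dusp1 in cluster 1 over cluster 0. The cause was not tested. Without the library block 8 members were called in dividing glia and 9 in fibroblasts, Dusp1 being the call lost. The block changed no other call of a member against resting glia or between glial clusters, and 27 of the 40 neighbouring pairs passed without it. The median of all genes in macrophages was -0.24, against -0.57 without TMM and -0.005 with DESeq2, and in fibroblasts -0.07, against -0.31 and 0.04, so differences of that size depend on the scaling. The number of UMIs limits Dusp1, Fosl2 and Zfp36 in macrophages.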
